A study of Mus musculus with 6 samples.

Results

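In palmitate-treated primary mouse hepatocytes labelled as lacking STING, *Apoa4* RNA was 1.505-fold higher than in the floxed controls, whereas none of the other 9 apolipoprotein and lipoprotein assembly genes examined passed the same test, which 23.1% of all tested genes passed. The 10 genes, *Apoa1*, *Apoa2*, *Apoa4*, *Apoa5*, *Apob*, *Apoc1*, *Apoc2*, *Apoc3*, *Apoe* and *Mttp*, were taken by name from an expression table of 57180 genes, as a group of related function. Values of a group are listed throughout in the order of its replicate numbers, 1 to 3. All 10 had enough reads to be tested, among 14151 genes that did. *Apoe* and *Apoa5* stood apart in 1 library labelled STING LKO, in opposite directions. Leaving that library out turned the direction of *Apoe* and brought *Apoa5*, higher either way, past the test. Of 10 tested genes for other apolipoproteins and proteins of plasma lipoproteins, 8 fell, as did 13 of 15 hepatocyte markers and 11.6% of all tested genes. These lists were chosen with earlier results of these data known, so their counts are a description only.

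The hepatocytes came from young adult male mice on a C57BL/6 background. STING LKO mice carried floxed STING alleles together with Albumin-Cre, which drives the recombinase in hepatocytes, and STING Loxp mice carried the floxed alleles as controls. Cells of both groups were isolated with collagenase, cultured in medium with dexamethasone and serum, and kept for 24 h with 0.1 mM of the saturated fatty acid palmitate, so there were no cells without palmitate. Each group had 3 libraries. The labels do not say whether these came from separate animals, so p-values measure only the spread between the libraries, which may be technical.

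Apolipoproteins are the proteins that wrap the lipid particles of blood plasma, and the liver makes most of them. Apolipoprotein B forms the backbone of very low density lipoprotein (VLDL), onto which the microsomal triglyceride transfer protein, encoded by *Mttp*, loads lipid in the endoplasmic reticulum. Apolipoproteins A-I and A-II are the main proteins of high density lipoprotein (HDL). The smaller C apolipoproteins and apolipoprotein A-V control how fast lipases and receptors remove triglyceride from the particles, and apolipoprotein E binds the receptors that take them up.

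Counted reads per library ran from 14726983 to 18536985. *Sting1*, the targeted gene, was covered by 19, 16 and 23 reads in STING Loxp, against 24, 23 and 15 in the libraries labelled STING LKO, a log2 fold change of -0.0779 (adjusted p = 0.883 by the quasi-likelihood test of edgeR, used for all genes). At so few reads the 95% interval ran from -0.76 to 0.60. The deleted part is not given in the sources used here, so reads on the remaining exons may still count, and the study's own RT-PCR check of the knockout was not analysed here. Each direction is that of the libraries as labelled. Of 15 hepatocyte markers, led by *Alb* (mean FPKM 7106), *Hpx* (2675) and *Serpina3k* (1324), 13 fell and 1 rose. The marker that rose was *Serpina3k* (log2 fold change 0.20, edgeR adjusted p = 0.0144). Summed, the 15 ran from 38259 to 42284 CPM (normalized counts scaled to a common library size) in STING Loxp and from 28738 to 29657 in STING LKO. A large part of this sum was *Alb*, with means of 19938 and 16586 CPM. Macrophage and Kupffer cell markers (13 of 14 tested, led by *Cd68*, *Lyz2* and *Mpeg1* with mean FPKM of 29.3, 7.92 and 5.48) summed to between 154 and 181 CPM and between 110 and 131, and 2 fell. These were *Cd68* (from 78.7 to 43.1 mean CPM) and *Mpeg1* (from 29.4 to 18.3). The other 11 tested did not pass, and 5 of the 13 were higher in direction. Sinusoidal endothelial markers (9 of 10 tested, led by *Cdh5*, *Lyve1* and *Eng* with 8.503, 6.21 and 4.53) summed to between 169 and 194 and between 157 and 171, and 1 fell. Stellate cell and fibroblast markers (10 of 12 tested, led by *Sparc*, *Dcn* and *Acta2* with 5.42, 3.21 and 1.74) summed to between 68.0 and 79.2 and between 78.0 and 81.6, and 0 passed the test (2 at an unadjusted p under 0.05). Cholangiocyte markers (4 of 8 tested, led by *Cldn4*, *Sox9* and *Spp1* with 83.4, 10.4 and 4.46) summed to between 269 and 327 and between 133 and 158, with 3 lower, those named, and 1 higher. Most of that sum was *Cldn4*, with means of 205 and 100 CPM. No marker was at 0 in every library, and *Krt7*, *Epcam*, *Cftr*, *Cldn7*, *Lrat*, *Lum*, *Clec4g* and *Timd4* had too few reads to test. The part of these shifts in the results below was not tested.

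Reads on the 10 genes made up 1.08%, 1.18% and 1.07% of all counted reads in STING Loxp, against 1.44%, 1.15% and 1.13% in STING LKO. *Apoa4* alone went from 0.240% ± 0.00925 to 0.370% ± 0.0107 of counted reads (SD, n = 3 per group). Without it, the other 9 genes together took 0.870% ± 0.0511 in STING Loxp and 0.869% ± 0.180 in STING LKO, where the wide spread comes from replicate 1 with 1.08%. In whole cultures of this kind, fewer cells of a type and less RNA per cell cannot be told apart. The test called 1 of the 10 genes at an adjusted p under 0.05, where it called 23.1% of all tested genes. It was the only one of the 10 among the genes higher in STING LKO, which were 11.5% of all tested genes, and 0 of the 10 were among the lower ones, which were 11.6% (at an unadjusted p under 0.05, 1 was lower, *Apoc3*, and 2 were higher, *Apoa4* and *Apoa5*, and DESeq2 also called 0 lower). Without STING LKO replicate 1, 3 of the 10 had an adjusted p under 0.05, *Apoa4* and *Apoa5* higher and *Apoe* lower, where that fit called 14.8% of all tested genes, 7.32% higher and 7.52% lower. A stricter call also asks for a log2 fold change beyond 1 either way and a group mean of over 1 FPKM, and 0 of the 10 met all 3 criteria, against 2.05% of tested genes. The median log2 fold change of the 10 was 0.0257, beside -0.00211 over all tested genes. STING LKO and STING Loxp libraries did not overlap in CPM for 4 of the 10, *Apoa1*, *Apoa4*, *Apoc3* and *Mttp*, against 40.7% of all tested genes.

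**Figure D1:**
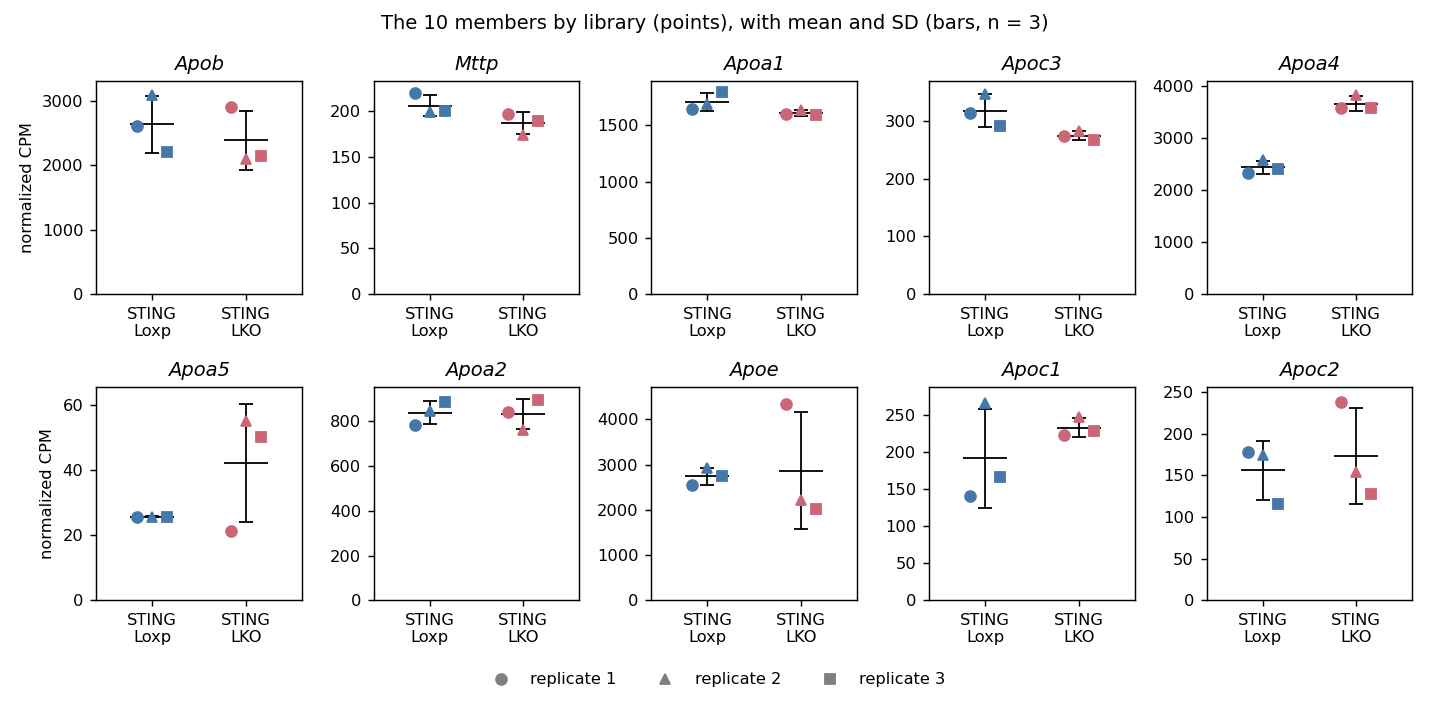
Normalized CPM (y axis, from 0) of each of the 10 genes in the 3 STING Loxp (blue) and 3 STING LKO (red) libraries, with symbols for replicate numbers and bars for the mean and SD. *Apoa4* lies between 3579 and 3823 in the STING LKO libraries and between 2321 and 2573 in the STING Loxp libraries, and STING LKO replicate 1 (circle) stands apart for *Apoe* and *Apoa5*.

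Levels of different genes can be compared only per length, and the length mattered here. FPKM, the deposited measure, divides a count by a gene length and by the library's reads. The length behind it was longer than the gene's own stretch of chromosome for 3 of the 10 genes, namely *Apoe* (6511 bases for a locus of 3080), *Apoa5* (3899 for 3287) and *Apoa2* (1539 for 1326), as for 7.67% of 13200 genes with at least 100 counts in all. Levels were therefore also computed per kilobase of merged exons in GENCODE M21, an annotation of the earlier build GRCm38 used for lengths only, a choice made after the data were seen. By FPKM the order in STING Loxp was *Apoa4* (1321 ± 51.0, SD, n = 3), *Apoa1* (1135 ± 53.5), *Apoa2* (537 ± 31.3) and *Apoe* (416 ± 22.9). Then came *Apoc3* (170 ± 13.4), *Apoc1* (148 ± 49.4), *Apob* (147 ± 23.1) and *Apoc2* (126 ± 28.3), with *Mttp* (30.8 ± 2.08) and *Apoa5* (6.49 ± 0.0706) last. The ranges of *Apoc1*, *Apob* and *Apoc2* overlapped with each other, and those of *Apoc1* and *Apob* also with that of *Apoc3*, so the order of these neighbours is not set. Per kilobase of merged exons, the top of the order in STING Loxp was *Apoa2* (1539 ± 89.7), *Apoa1* (1362 ± 64.2), *Apoa4* (1321 ± 51.0) and *Apoe* (1266 ± 69.6), where neighbours among the last 3 differed by no more than the larger SD. In STING LKO, *Apoa4* came first by both lengths, at a mean of 2039 ± 59.1 by either, because its FPKM length equals its merged exons. In STING LKO replicate 1 alone, *Apoe* (2056 per kilobase of merged exons) was above *Apoa4* (1994). *Mttp*, whose protein stays in the cell, was ninth and *Apoa5* last by both lengths.

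**Figure D2:**
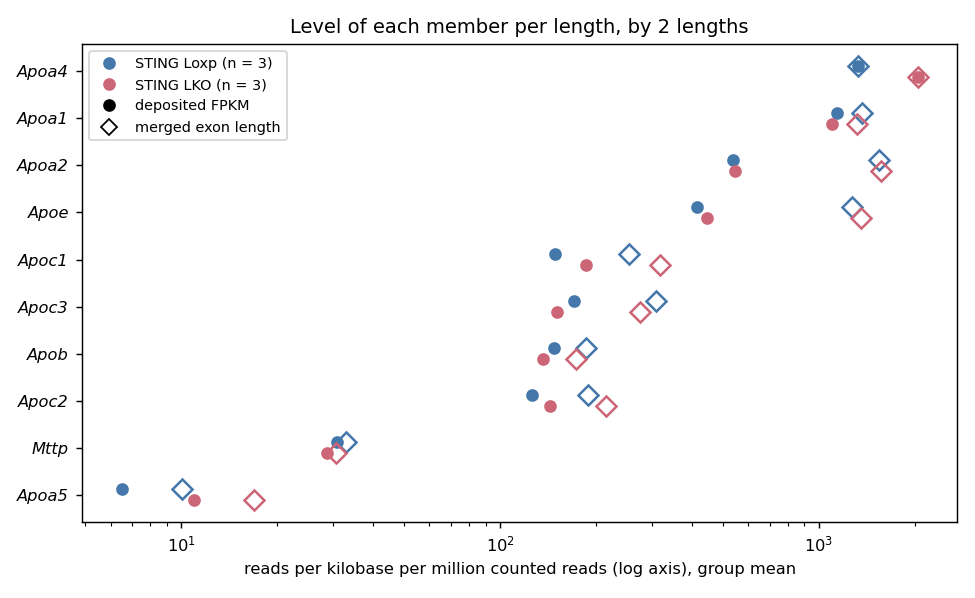
Mean level per length of each gene on a log axis, as deposited FPKM (filled circles) and per kilobase of merged exons (open diamonds), for STING Loxp (blue) and STING LKO (red), n = 3 each. The diamonds move *Apoa2* and *Apoe* up to the level of *Apoa1*, while *Apoa4* and *Mttp* stay close to their circles.

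*Apob* and *Mttp*, which together start the assembly of VLDL, did not pass the test. *Apob* (ENSMUSG00000020609, chromosome 12, 8027648 to 8066835, build GRCm39 per the submitters' processing notes, as for all gene positions except promoters) had 2609.5, 3090 and 2205 CPM in STING Loxp. In STING LKO it had 2910, 2104 and 2140. The groups overlapped, and its spread within each group (SD 443 and 456, n = 3) exceeded the difference of the means. The log2 fold change was -0.14 (95% interval -0.48 to 0.20, edgeR adjusted p = 0.537), and it ran from -0.31 to -0.013 with 1 library left out. *Mttp* (ENSMUSG00000028158, chromosome 3, 137795615 to 137850729) had 219.7, 199 and 200.02 CPM in STING Loxp, against 197, 175 and 190 in STING LKO. Its groups came close without overlapping, with a log2 fold change of -0.14 (interval -0.29 to 0.012, adjusted p = 0.171), and *Mttp* shares the end of its locus with *Trmt10a*, whose log2 fold change was 0.00370. Within each library, the log2 ratio of *Mttp* to *Apob* FPKM averaged -2.24 ± 0.26 in STING Loxp and -2.24 ± 0.20 in STING LKO (exact two-sided permutation test, p = 1, and 0.1 is the lowest that groups of 3 can reach).

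*Apoa1* and *Apoa2*, the main HDL proteins, did not pass the test either. *Apoa1* (ENSMUSG00000032083, chromosome 9, 46139878 to 46141764) had 1641, 1687 and 1792 CPM in STING Loxp, against 1600.1, 1634 and 1587 in STING LKO. Every STING LKO value was below every STING Loxp value, but by little, with a log2 fold change of -0.087 (interval -0.20 to 0.022, edgeR adjusted p = 0.232). *Apoa2* (ENSMUSG00000005681, chromosome 1, 171052623 to 171053948) had 784, 844 and 886 CPM and 842, 760.4 and 894. These overlap throughout, and its log2 fold change was -0.0097 (interval -0.17 to 0.15, adjusted p = 0.942), with a sign that scaling by library totals alone turned. Neither interval reaches the log2 fold change of *Apoa4*.

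*Apoa4* encodes apolipoprotein A-IV, which the intestine and, in rodents, the liver secrete on triglyceride-rich particles and HDL. It lies on chromosome 9 from 46151994 to 46154757 (ENSMUSG00000032080), in a cluster with *Apoa1*, *Apoc3* and *Apoa5*. Its CPM were 2321, 2573 and 2405 in STING Loxp. They were 3579, 3823 and 3582 in STING LKO. Every library labelled STING LKO was thus above every STING Loxp library. *Apoa4* rose by 0.59 on the log2 scale (standard error 0.054, interval 0.47 to 0.71, edgeR adjusted p = 2.45e-04), which is short of the fold change criterion. The exact two-sided permutation test gave p = 0.1, the smallest it can give with 3 libraries against 3. Over 13 alternative fits the log2 fold change lay between 0.55 and 0.63, and the adjusted p between 6.41e-15 and 0.00210. The long noncoding RNA *Gm10680*, whose locus overlaps the end of *Apoa4*, had between 274 and 661 counts per library against 36533 to 70846 for *Apoa4*, and its log2 fold change was 0.45 (adjusted p = 0.136).

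Relative to *Apoa1*, its neighbour in the cluster, *Apoa4* changed from a mean log2 ratio of 0.22 ± 0.092 to 0.90 ± 0.035 (SD, n = 3 per group). Because both genes are read in the same library, this difference of 0.68 does not depend on how libraries are scaled. In 3 of 3 STING LKO libraries the ratio lay above all controls (exact permutation test, two-sided, p = 0.1, or 0.6 after Benjamini-Hochberg adjustment over 6 ratios). Ratios of *Apoc3* to *Apoa1*, *Apoa5* to *Apoa4*, *Apoc1* to *Apoe* and *Apoc2* to *Apoe* differed by -0.12, 0.00955, 0.36 and 0.15, with exact permutation p from 0.4 to 1. Over the 6 libraries, the genes among 3962 with a mean FPKM above 10 whose log2 CPM followed *Apoa4* most closely were *Nop2*, *Gm7901* and *Polr1b* (Pearson r = 0.998 for each). All 3 were higher in STING LKO (log2 fold changes of 0.41, 0.58 and 0.81), so their likeness contains the difference between the groups.

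Of the 4 genes of the chromosome 9 cluster 1 passed the test, and the 250 bases before the RefSeq start sites (GRCm38.p6, plus strand, the first start listed) are shown for that gene, *Apoa4* (chr9:46240594-46240843), for its neighbour *Apoa1* (chr9:46228380-46228629), and for *Apoa5* (chr9:46268358-46268607), whose values split within STING LKO. Of the 10 genes, 8 had a promoter in that table. Capitals mark matches on either strand to CAAAGT (a part of sites that HNF4 factors bind), TATAAA (the TATA box), CACGTG (the E-box) and TGACGT (the core of a cAMP response element), none of which overlap here.

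Apoa1: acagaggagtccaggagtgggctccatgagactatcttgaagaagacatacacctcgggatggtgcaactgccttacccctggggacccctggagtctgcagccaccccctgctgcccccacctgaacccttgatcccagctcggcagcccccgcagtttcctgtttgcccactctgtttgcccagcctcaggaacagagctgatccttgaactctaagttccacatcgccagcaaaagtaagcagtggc

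Apoa4: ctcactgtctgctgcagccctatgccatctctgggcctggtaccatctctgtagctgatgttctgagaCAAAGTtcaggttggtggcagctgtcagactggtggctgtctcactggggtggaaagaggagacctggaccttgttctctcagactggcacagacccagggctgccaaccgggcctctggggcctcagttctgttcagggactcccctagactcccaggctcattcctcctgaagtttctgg

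Apoa5: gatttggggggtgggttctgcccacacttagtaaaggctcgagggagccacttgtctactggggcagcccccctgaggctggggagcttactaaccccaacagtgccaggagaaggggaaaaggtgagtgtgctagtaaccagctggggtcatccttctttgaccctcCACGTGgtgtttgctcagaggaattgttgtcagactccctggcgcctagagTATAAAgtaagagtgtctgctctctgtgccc

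In these windows *Apoa4* held CAAAGT from 182 to 177 bases before the start, as did 12.6% of 32817 mouse promoters somewhere in the same stretch. *Apoa5* held TATAAA from 31 to 26 bases before its start (12.4% of promoters) and CACGTG from 82 to 77 (6.02%). *Apoa1* held none of the 4 motifs, and TGACGT, present in 6.46% of promoters, was found in that of *Mttp* and in none of the 3 shown. Such matches describe the letters only.

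Along the chromosome 9 cluster, *Apoa1*, *Apoc3*, *Apoa4* and *Apoa5* had log2 fold changes of -0.087, -0.21, 0.59 and 0.72. Of the genes on either side, *Zpr1* (next to *Apoa5*) and *Tagln* rose, by 0.20 and 0.53 (edgeR adjusted p = 0.0234 and 0.0195). *Bud13*, *Sik3*, *Pafah1b2* and *Sidt2* had values of 0.038, 0.027, 0.029 and -0.053 (adjusted p from 0.476 to 0.859). The call of *Zpr1* was lost without STING Loxp replicate 3 or any one STING LKO library (adjusted p from 0.0689 to 0.0936), and that of *Tagln* without STING LKO replicate 1 (0.0608) or 2 (0.0698). On chromosome 7, *Apoc2*, *Apoc4*, *Apoc1* and *Apoe* follow each other, with log2 fold changes of 0.15, -0.37, 0.28 and 0.061. *Apoc4*, a further C apolipoprotein that is not among the 10, fell (adjusted p = 0.00698), although *Apoc2l*, described with *Apoc2*, also lies over most of it (19412008 to 19415404), so its count is uncertain too. *Tomm40*, a mitochondrial import gene next to *Apoe*, rose by 0.42 (adjusted p = 0.00147). *Nectin2*, *Clptm1*, *Relb* and *Bcam* had values of -0.090, -0.081, -0.40 and -0.33 (adjusted p from 0.190 to 0.688). *Relb* was called without STING Loxp replicate 1 (-0.59, adjusted p = 0.0361).

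**Figure D3:**
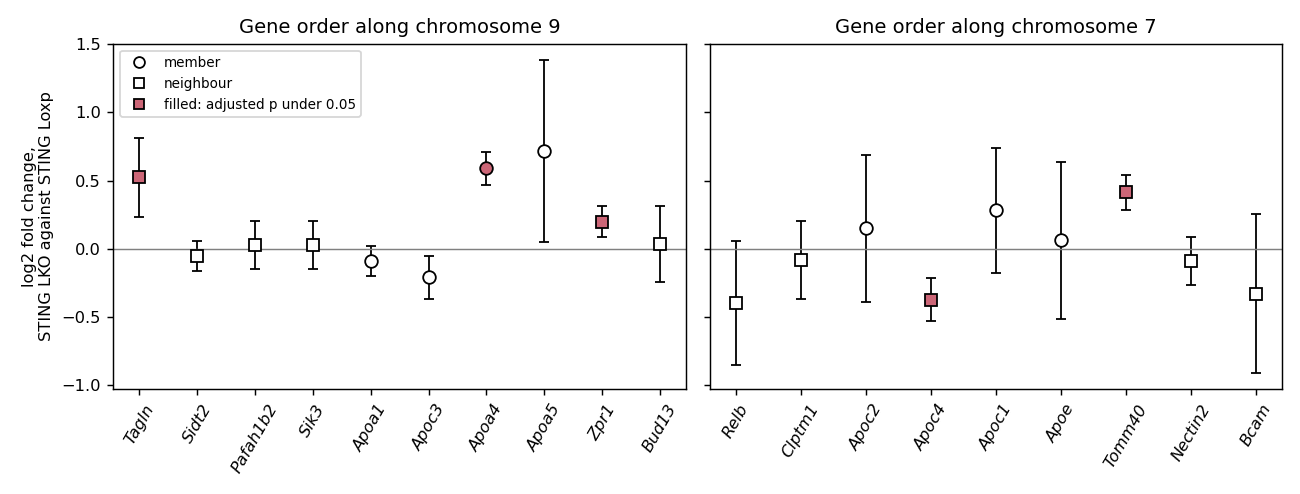
Log2 fold change of STING LKO against STING Loxp with its 95% interval (y axis) for the genes of the 2 apolipoprotein clusters and their listed neighbours in gene order (x axis, not to distance), n = 3 per group. *Apoa4* is filled at 0.59 between the lower, unfilled *Apoc3* and the wide interval of *Apoa5*, and *Apoc4* is filled below 0 among unfilled members on chromosome 7.

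*Apoa5* encodes apolipoprotein A-V, a scarce protein that promotes lipolysis by lipoprotein lipase. At chromosome 9, 46179931 to 46183217 (ENSMUSG00000032079), it had 25.6, 25.7 and 25.7 CPM in STING Loxp, from 405, 368 and 390 counts. In STING LKO it had 54.9 and 50.3 CPM in replicates 2 and 3 but 21.3 in replicate 1, from 1018, 862 and 334 counts. 1 library labelled STING LKO was therefore below all controls, and the other 2 were above them all. With all libraries the log2 fold change was 0.72 (interval 0.052 to 1.39, edgeR adjusted p = 0.114). Without STING LKO replicate 1 it was 1.04 (adjusted p = 6.37e-04), which met the 3 criteria, and alternatives gave adjusted p between 6.37e-04 and 0.330.

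*Apoe* showed the opposite split. Apolipoprotein E, the ligand through which remnant particles bind their receptors, is encoded at chromosome 7, 19430034 to 19433113 (ENSMUSG00000002985). Its CPM were 2554, 2927 and 2758 in STING Loxp, against 4347 in STING LKO replicate 1 and 2220 and 2027 in replicates 2 and 3. Replicate 1 was above and the other 2 below every control library. The pooled log2 fold change of 0.061 (interval -0.51 to 0.64, edgeR adjusted p = 0.891) lies between these and describes none of the 3. Without STING LKO replicate 1 it was -0.37 (adjusted p = 0.0181), the other direction. Over all alternatives it lay between -0.37 and 0.26, with adjusted p from 0.0181 to 0.988.

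Macrophages and stellate cells also express *Apoe*. The summed macrophage markers were 125, 131 and 110 CPM in STING LKO, and the stellate cell markers 78.0, 81.6 and 78.7. Within STING LKO, 5 of 13 tested macrophage markers and 1 of 10 stellate cell markers were highest in replicate 1. Among 7392 genes with a mean of at least 20 CPM, STING LKO replicate 1 differed by over 1 log2 unit from the mean of the other 2 for 26 genes, 14 above and 12 below, or 0.352% of them, a limit chosen after the data were seen. In the other 5 libraries this share was from 0.338% to 0.717%. *Apoe*, with a log2 difference of 1.03, and *Apoa5*, with -1.305, were among the 26, and no other of the 10 genes passed that limit in any library. *Apob*, *Apoc2* and *Mttp* were also highest within STING LKO in replicate 1. The cause of the split was not tested.

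**Figure D4:**
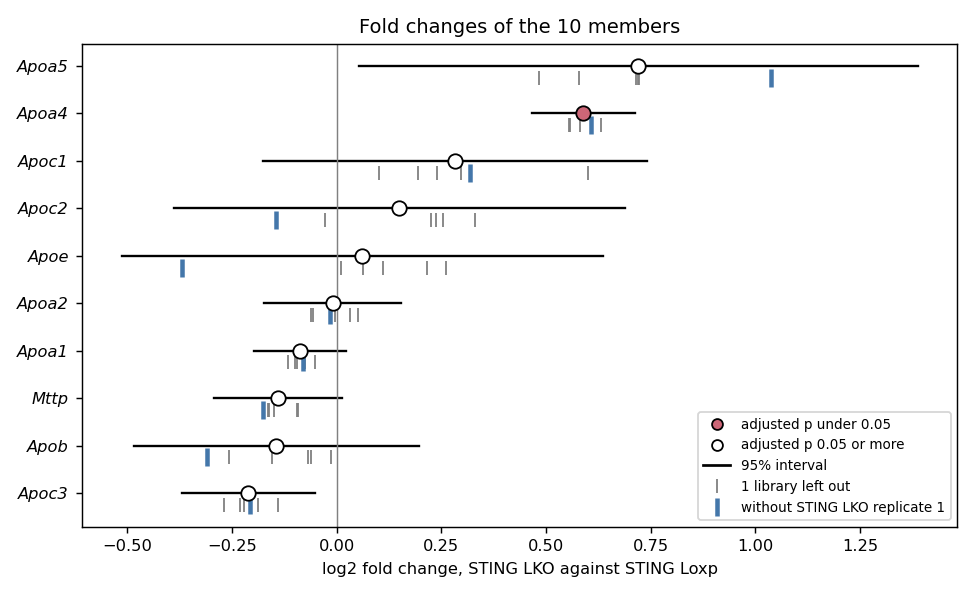
Log2 fold change of each gene (circles, filled where the adjusted p is under 0.05) with its 95% interval, and the value with 1 library left out (ticks below, thick blue for STING LKO replicate 1), n = 3 per group. The blue tick moves *Apoa5* up to 1.04 and takes *Apoe* to -0.37, while the ticks of *Apoa4* stay between 0.55 and 0.63.

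*Apoc3*, *Apoc1* and *Apoc2* encode small exchangeable proteins, of which C-III and C-I slow the clearance of triglyceride-rich particles and C-II is the cofactor of lipoprotein lipase. *Apoc3* (ENSMUSG00000032081, chromosome 9, 46144231 to 46146934) had 314.5, 348 and 291 CPM in STING Loxp, against 274, 282 and 267 in STING LKO. Each STING LKO value was below each STING Loxp value. The log2 fold change was -0.21 (interval -0.37 to -0.052, unadjusted p = 0.0154, edgeR adjusted p = 0.0613). It sat at the threshold, passing it with upper-quartile factors (adjusted p = 0.0447) and without STING Loxp replicate 3 (-0.27, adjusted p = 0.0333), and alternatives gave adjusted p between 0.0327 and 0.177.

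*Apoc1* (ENSMUSG00000040564, chromosome 7, 19423406 to 19426585) had 141, 267 and 167 CPM in STING Loxp, against 223, 247 and 229 in STING LKO. The control libraries were the variable ones (SD 66.6 against 12.6, n = 3 per group), with replicate 2 above every STING LKO library and the other 2 below them all. Its log2 fold change was 0.28 (interval -0.17 to 0.74, edgeR adjusted p = 0.358), and 0.60 without STING Loxp replicate 2 (adjusted p = 0.00351).

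For *Apoc2* (ENSMUSG00000002992, chromosome 7, 19405504 to 19411866) the count itself is uncertain, because *Apoc2l* (19405509 to 19415348) lies over it from nearly the same start. *Apoc2* had 178, 174 and 115 CPM in STING Loxp, against 238, 154 and 127 in STING LKO. *Apoc2l* had 6, 215 and 611 counts and 136, 459 and 582, so that within each group it was highest where *Apoc2* was lowest. Summed, a step added after the data were seen, the 2 genes had 179, 189 and 156 CPM in STING Loxp, against 246, 179 and 161 in STING LKO, a narrower range. *Apoc2* alone had a log2 fold change of 0.15 (interval -0.39 to 0.69, edgeR adjusted p = 0.700), and the sum 0.16 (adjusted p = 0.481). Without STING LKO replicate 1 or STING Loxp replicate 3 the value for *Apoc2* alone fell below 0, to -0.15 and -0.028.

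Genes that act around these 10 were followed in 5 hand-written lists of 84 genes, of which 83 were tested, 31 fell and 6 rose, against 11.6% and 11.5% of all tested genes. Their median log2 fold change was -0.21. The lists were chosen with earlier results of these data known, so the counts describe them and do not test them against all genes. The hepatocyte markers moved the same way, with 13 of 15 lower, and their part in these counts was not tested. Of 10 tested genes for other apolipoproteins and plasma lipoprotein proteins, 8 fell and the other 2 did not pass the test, with a median of -0.32. *Clu*, which encodes the HDL-associated clusterin or apolipoprotein J, went from 4731 to 2540 mean CPM, a log2 fold change of -0.90 (edgeR adjusted p = 1.41e-04). *Lcat*, whose enzyme esterifies cholesterol on HDL, fell by 0.69 (adjusted p = 3.05e-04), and *Apof*, for apolipoprotein F, fell by 0.49 (adjusted p = 0.00125). Summed, the list ran from 5577 to 5932 CPM in STING Loxp and from 3126 to 3585 in STING LKO, whereas the 10 genes ran from 10788 to 12135 and from 11095 to 14232. Most of the list's sum was *Clu*, which alone ran from 4529 to 4862 CPM and from 2255 to 2719. The 14232 of the 10 genes was STING LKO replicate 1, where *Apoe* stood apart.

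Of 21 genes of lipoprotein assembly and secretion, 9 fell and 1 rose, with a median of -0.18. *Cideb*, a lipid droplet protein that takes part in VLDL lipidation, fell by 0.66 in log2 units (edgeR adjusted p = 9.73e-04). *Mia3*, a receptor for large secretory cargo, fell by 0.36 (adjusted p = 0.00307) and *Dgat2*, which makes triglyceride, fell by 0.49 (adjusted p = 0.00852). Of 10 lipase and HDL efflux genes, 3 fell and 1 rose, with a median of -0.30. *Lipc*, hepatic lipase, fell by 1.01 (adjusted p = 1.38e-04), and *Abca1*, the exporter that gives lipid to apolipoprotein A-I, fell by 0.73 (adjusted p = 5.60e-04).

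The receptor list had both directions among its calls, with 2 of 15 genes lower and 3 higher and a median of -0.011. *Sdc1*, a heparan sulfate proteoglycan that binds remnant particles, fell by 0.51 (edgeR adjusted p = 3.05e-04). Of 27 transcriptional regulators, 9 fell and 1 rose, with a median of -0.21. *Hnf4a*, a nuclear receptor with binding sites at many apolipoprotein genes, went from 285 to 189 mean CPM, a log2 fold change of -0.59 (adjusted p = 3.38e-04). *Creb3l3*, a membrane-bound factor of the endoplasmic reticulum that is known to act on *Apoa4*, fell by 0.59 (adjusted p = 8.44e-04), and *Rora* fell by 0.93 (adjusted p = 1.50e-04). These 12 named genes kept their direction and call in all 13 alternative fits. They were named for the smallest adjusted p of their lists, and the alternatives reused the same libraries. That the other lists moved more often than the 10 genes is a description of the counts, and the difference was not tested.

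**Figure D5:**
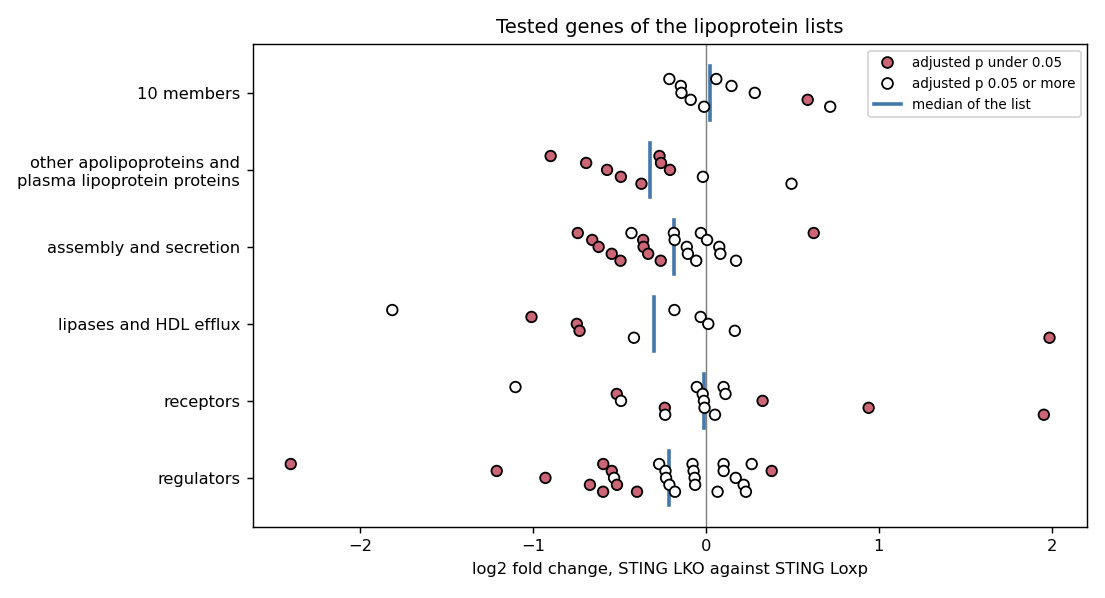
Log2 fold change of STING LKO against STING Loxp (x axis) for each tested gene of the 10 and of the 5 other lists, with filled points for an adjusted p under 0.05 and a blue line at each list's median, n = 3 per group. Of the 10 genes 1 point is filled, at 0.59, and 8 of 10 points of the second row are filled, all below 0.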

How the data were processed

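RNA of palmitate-treated primary hepatocytes was measured in 6 libraries, 3 per group, grouped by the sample labels. The authors prepared libraries with the VAHTS Universal V6 kit, read paired ends and aligned them with HISAT2. Per the labels, the processing notes also name fastp, StringTie, edgeR and the build GRCm39; annotation, counting tool and strand setting are not given in the sources used here. The deposited table gives each gene's raw read count in each library and its FPKM, which the authors scaled by gene length and counted reads.

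The tests ran in edgeR 4.0.16 under R 4.3.3. Genes passing filterByExpr (minimum count 10) were normalized by TMM and compared by its quasi-likelihood F test (two-sided), p-values being adjusted by Benjamini-Hochberg over all 14151 genes and a threshold of 0.05; standard errors and 95% intervals derive from its F statistic. Single values were compared by exact permutation over libraries. Steps were tested on simulated data. Alternatives were DESeq2 1.42.0, other scalings, no low-count filter, a replicate block, limma-trend (limma 3.58.1) on log2(FPKM + 1) and log2(FPKM + 0.1), and each library left out. Promoters came from RefSeq. Figures were drawn with matplotlib 3.10.9.

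The members and gene lists were chosen with earlier results of these data known. Genes named are the 10 members, *Sting1*, the 3 genes with the smallest adjusted p of each lipoprotein list (some of these are not reported here), of each cell type the 3 markers highest in FPKM, the tested cluster neighbours and the 3 genes most like *Apoa4*; genes overlapping a member and untested markers were named after their values were seen. Depth of 14726983 to 18536985 counted reads gave at least 334 counts for each member in each library.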

Additional observations from a re-analysis of the deposited data

How the results depend on the processing

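Over 13 alternative fits, *Apoa4* kept its direction and its call in each, and *Apoa1*, *Apoa5*, *Apob*, *Apoc1*, *Apoc3* and *Mttp* kept their direction. The number of the 10 genes with an adjusted p under 0.05, 1 with all libraries, was 2 with upper-quartile factors and 2 with the replicate block, where *Apoc3* made 1 lower gene each time. With 1 library left out it ran from 1 to 3, with 1 to 2 higher and 0 to 1 lower, and the number meeting the 3 criteria from 0 to 1. The median log2 fold change of the 10, 0.0257, then ran from -0.11 without STING LKO replicate 1 to 0.13 without STING LKO replicate 2. *Apoa2* was 0.0266 with library totals alone, and 0.0245 and 0.0246 under limma-trend with 1 and 0.1 added. With 1 library left out, *Apoa2* lay between -0.0621 and 0.0518, *Apoc2* between -0.15 and 0.33, *Apoe* between -0.37 and 0.26, *Bud13* between -0.0428 and 0.12, *Sik3* between -0.0257 and 0.0893, *Pafah1b2* between -0.0292 and 0.11 and *Clptm1* between -0.18 and 0.0567.

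Same-numbered libraries of the 2 groups correlated with r of 0.12, 0.0834 and 0.0134 in their deviations from the group means, and STING Loxp replicate 3 correlated best with another number, so the replicate numbers were not taken as pairs. With the replicate block, *Apoe* was -0.0298, *Apoc3* had an adjusted p of 0.0327, and 3235 genes were called in place of 3274. The other lipoprotein genes called numbered from 27 to 38 over the alternatives, with 37 in the main comparison. The cause of these shifts was not tested. With 3 libraries per group the precision of *Apoe*, *Apoa5* and *Apoc1* is limited by the spread between libraries and not by read depth. For *Apoc2* the standard error was 0.24 alone and 0.15 when summed with *Apoc2l*. The part of read assignment in its spread was not tested.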
